A study of Mus musculus with 21 samples.

Results

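Neurofilament and neuronal microtubule genes are described here in the cortex and hippocampus of GA-Camk2a mice. The group holds 10 genes, chosen by name, of 64361 gene rows in the count table. They are the 3 neurofilament subunits Nefl, Nefm and Nefh with their partner Ina, the microtubule-associated protein genes Map2, Mapt and Map1b, the neuronal beta-tubulin gene Tubb3, the tubulin-binding stathmin gene Stmn2, and Uchl1, which encodes an abundant neuronal deubiquitinating enzyme. All 10 had 1 row each in the table, and all 10 passed the filter on low counts in both tissues.

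GA-Camk2a mice carry a floxed GFP-(GA)175 transgene, a repeat protein of the C9orf72 form of amyotrophic lateral sclerosis, which Camk2a-Cre turns on in excitatory neurons. The line has a C57BL/6J background, and mice of 30 to 40 weeks, at the humane endpoint, were compared with controls labelled ctrl, whose Cre status and transgene status the labels do not give. Bulk prime-seq, which counts the 3′ ends of polyadenylated RNA, gave 21 libraries from 11 mice: 5 control and 6 GA-Camk2a cortices, and 4 control and 6 GA-Camk2a hippocampi. In all, 10 mice gave both tissues, and libraries of both genotypes stood in both library batches. The question was how the genes of the neuronal cytoskeleton differ between genotypes, and whether the 2 tissues differ in this.

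Total counts ranged from 1048201 to 5888102 per library, with a median of 1975173. All 5 hippocampus markers were higher in hippocampus than in cortex in controls, with a median log2 difference of 2.36. Among the cortex markers, Cux2 and Tbr1 were lower in the hippocampus in both genotypes, whereas Fezf2 was higher in both and Rorb in GA-Camk2a mice. Rorb stood at 1455 CPM (counts per 1000000 counts of the library) in the hippocampus of control mouse 11 and at 5303 and 4414 CPM in those of GA-Camk2a mice 16 and 30, against 86.6 to 165 CPM in the other 7 hippocampi. In the cortex it was 133 to 214 CPM, except 612 CPM in GA-Camk2a mouse 41. The cortex markers summed to 171 to 1536 CPM in control and 195 to 5374 CPM in GA-Camk2a hippocampus, and to 281 to 425 CPM and 238 to 705 CPM in the cortex. The GFP row held 0 to 4 counts per library in all groups and therefore does not check the genotype labels. Choroid plexus markers summed to 1803 to 55449 CPM in the hippocampal libraries, and to 1585 to 8177 CPM in the cortical ones. Striatal markers summed to 345 to 522 CPM in control cortex and to 119 to 203 CPM in GA-Camk2a cortex, so these groups did not overlap. The part of these differences in the values of the 10 genes was not tested.

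Neurofilaments are the intermediate filaments of neurons and fill large axons, whose calibre they help to set. The light subunit forms the core of the filament, the medium and heavy subunits add long tails that are phosphorylated in axons, and alpha-internexin, the product of Ina, joins the same polymer in the central nervous system. Microtubules run beside them: Tubb3 encodes a neuron-specific beta-tubulin, Map2 is a marker of dendrites, tau (the product of Mapt) is mainly axonal, and stathmin-2 binds tubulin and serves axon growth and repair. Neurofilament light chain released from damaged axons is measured in blood and cerebrospinal fluid as a marker of neuronal injury, but the values below are RNA levels in tissue and say nothing of released protein.

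Nefl and Nefm are neighbouring protein-coding genes on chromosome 14, whereas the other 8 genes lie apart, on chromosomes 1, 3, 5, 8, 11, 13 and 19, with Nefh and Mapt both on chromosome 11. The bases just before the start sites are shown for 4 of the 5 members that the RefSeq promoter table holds. It holds no window for Nefl, Nefm, Nefh, Mapt or Stmn2. Whether these sequences bear on the genotype differences was not tested. Each line is the 100 bases before the annotated start on the gene's own strand, build GRCm38.p6, 5′ to 3′. Capitals mark GGGCGG (a GC box), TATAA (part of the TATA box) or CCAAT, read on either strand.
Ina, chr19:47014581-47014680, plus strand: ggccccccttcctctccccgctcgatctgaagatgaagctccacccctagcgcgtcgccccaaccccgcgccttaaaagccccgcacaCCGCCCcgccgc
Map2, chr1:66175229-66175328, plus strand: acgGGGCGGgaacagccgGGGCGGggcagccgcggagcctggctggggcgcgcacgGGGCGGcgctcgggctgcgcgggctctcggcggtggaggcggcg
Map1b, chr13:99516603-99516702, minus strand: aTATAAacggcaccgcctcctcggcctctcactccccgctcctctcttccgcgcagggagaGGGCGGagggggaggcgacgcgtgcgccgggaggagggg
Tubb3, chr8:123411453-123411552, plus strand: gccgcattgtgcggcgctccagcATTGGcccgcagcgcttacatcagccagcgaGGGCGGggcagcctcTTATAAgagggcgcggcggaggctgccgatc

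Over the 250 bases before the start, GGGCGG occurred in 4 of the 5 members found in the table, TATAA in 2 (Map1b and Tubb3) and CCAAT in 1 (Tubb3). Of all 32851 windows in the table, 32.7% held GGGCGG, 22.8% held TATAA and 33.8% held CCAAT on either strand. G and C made up 70.8% of the 250 bases in Ina, 81.2% in Map2, 66.4% in Map1b, 68.0% in Tubb3 and 48.8% in Uchl1. The median over all windows was 52.4%, and the part of base composition in the matches was not tested. In Tubb3 the letters TTATAA hold TATAA on both strands, so this is 1 place. The Uchl1 window held none of the 3 motifs. A match is a description of letters and not evidence of binding.

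**Figure D1:**
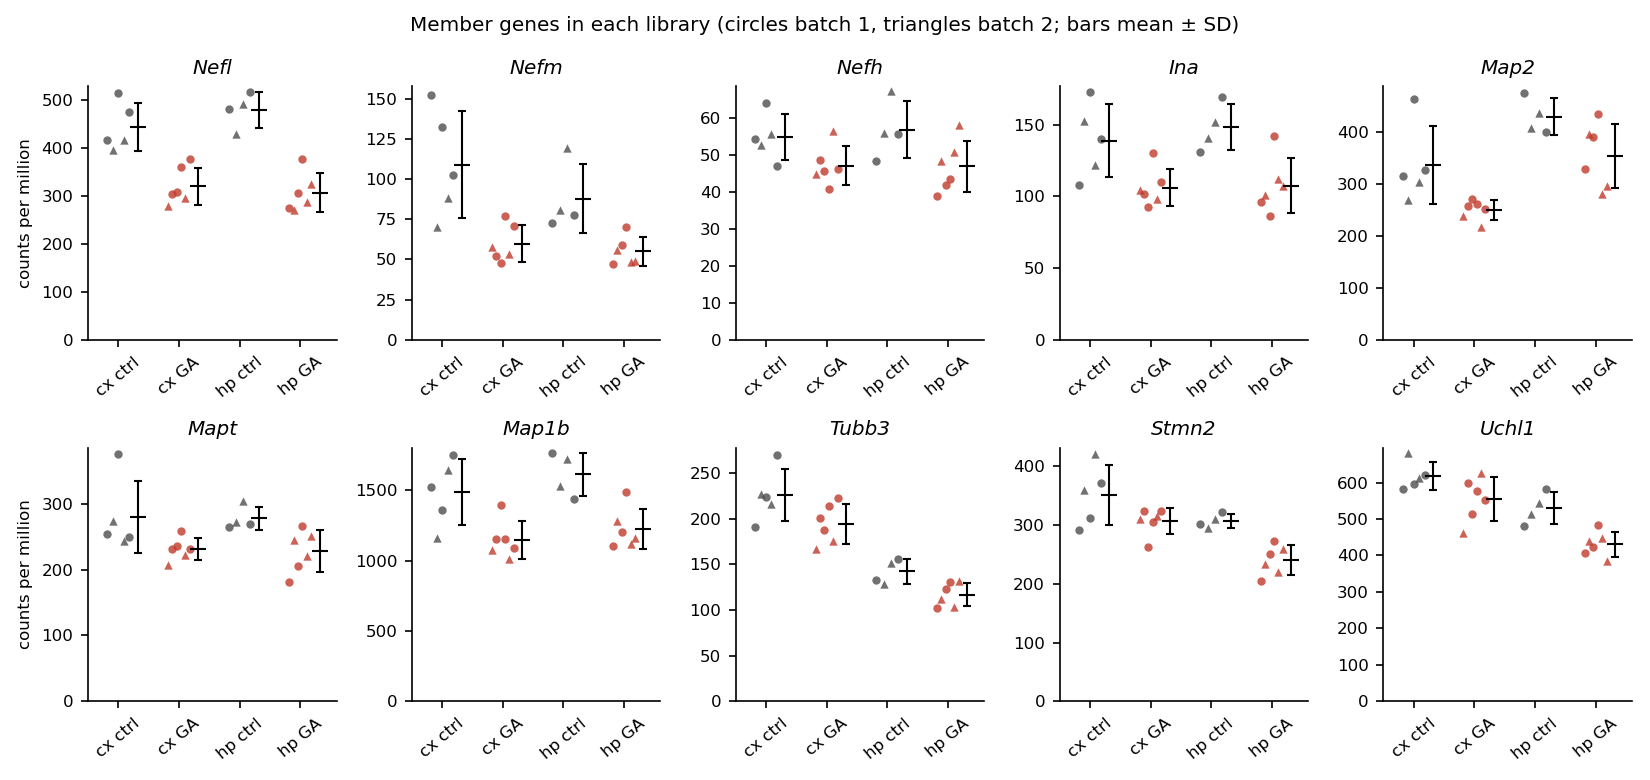
CPM (vertical axis) of each of the 10 genes in every library, by tissue (cx, cortex; hp, hippocampus) and genotype (ctrl, control; GA, GA-Camk2a). Points are libraries, crosses with bars are the mean ± SD, and the axes start at 0. The GA-Camk2a mean lies below the control mean for each gene in each tissue, and the Nefl libraries do not overlap in either tissue.

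All 4 filament genes had lower mean levels in GA-Camk2a mice in both tissues, and Nefl, Nefm and Ina fell in both. In the cortex, Nefl reached 416 CPM in control mouse 11, 395 in mouse 20, 514 in mouse 31, 415 in mouse 37 and 474 in mouse 38. The 6 GA-Camk2a cortices lay between 279 and 375 CPM, with a median of 306. The groups did not overlap, and mouse 31 was the highest control.

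In the hippocampus, Nefl stood at 481 CPM in control mouse 11, 428 in mouse 20, 491 in mouse 31 and 515 in mouse 37. The 6 GA-Camk2a hippocampi ranged from 269.6 to 377 CPM, with a median of 296. Again every GA-Camk2a library was below every control library. Nefl thus fell by 0.48 on the log2 scale in the cortex (SE 0.09, adjusted p = 0.000721) and by 0.69 in the hippocampus (SE 0.09, adjusted p = 0.000164). These tests used the quasi-likelihood fit of edgeR with batch as a term, adjusted over all genes by Benjamini and Hochberg, and a gene is called here when its adjusted p is under 0.05.

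Nefm encodes the medium subunit. Its cortical level was 153 CPM in control mouse 11, 69.9 in mouse 20, 132 in mouse 31, 88.1 in mouse 37 and 103 in mouse 38. The GA-Camk2a cortices lay between 47.6 and 77.3 CPM with a median of 55.6, so that 4 of 6 were below every control. The controls were widely spread: the 3 of batch 1 (mice 11, 31 and 38) were above the 2 of batch 2. Nefm fell by 0.87 (SE 0.15, adjusted p = 0.000285), by 1.03 within batch 1 (SE 0.18, adjusted p = 0.00113). Within batch 2 alone the difference was -0.53 (SE 0.19, adjusted p = 0.195), and the call was lost.

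Hippocampal Nefm was 72.7 CPM in control mouse 11, 81.0 in mouse 20, 119.7 in mouse 31 and 77.7 in mouse 37. The GA-Camk2a libraries spanned 47.1 to 70.5 CPM with a median of 52.6, and none overlapped with a control. Nefm fell by 0.68 (SE 0.14, adjusted p = 0.00597). In this tissue the difference was larger within batch 2, at -0.999 (SE 0.17, adjusted p = 0.00462), than within batch 1, at -0.40 (SE 0.16, adjusted p = 0.375), where the call was lost, so the batch with the larger value was not the same in the 2 tissues. No test compared the batches.

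Nefh, the heavy subunit, differed least of the 4 filament genes in both tissues. Cortical Nefh was 54.4, 52.7, 64.1, 55.7 and 47.1 CPM in control mice 11, 20, 31, 37 and 38, against 40.9 to 56.5 CPM (median 45.9) in GA-Camk2a mice. These groups overlapped, and the log2 difference of -0.19 (SE 0.11, adjusted p = 0.291) was not called and ran from -0.25 to -0.12 over the fits without 1 library. Hippocampal Nefh was 48.4, 56.0, 67.2 and 55.6 CPM in control mice 11, 20, 31 and 37, against 39.0 to 58.0 CPM (median 46.0) in GA-Camk2a mice. It was called, at -0.32 (SE 0.10, adjusted p = 0.0479), but only 2 of 10 fits without 1 library kept this call, and of 9 other alternatives only the size factors of DESeq2 did. It was lost with upper quartile factors, by DESeq2 and limma-voom, without the filter, without the batch term, in each batch alone and after thinning each library to the size of the smallest. With the fewest counts of the 4 genes, 50 to 330 per library, Nefh was also measured with the least depth.

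Ina encodes alpha-internexin. Its cortical level was 108, 153, 173, 122 and 139.6 CPM in control mice 11, 20, 31, 37 and 38, and 92.7 to 129.9 CPM (median 103) in GA-Camk2a mice. The ranges overlapped, with 4 of 6 GA-Camk2a cortices below every control. Hippocampal Ina was 131, 141, 152 and 169 CPM in control mice 11, 20, 31 and 37, and 86.0 to 142 CPM (median 104) in GA-Camk2a mice. Ina fell by 0.39 in the cortex (SE 0.11, adjusted p = 0.0240) and by 0.51 in the hippocampus (SE 0.12, adjusted p = 0.0132). The cortical call disappeared in 5 of 11 fits leaving out a library, namely without control mouse 20 or 31 or without GA-Camk2a mouse 23, 30 or 35, where the adjusted p reached 0.105. The hippocampal call was lost without control mouse 37, at an adjusted p of 0.0662.

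Map2 and Map1b fell in the cortex and Map1b and Mapt in the hippocampus. Map2, the dendritic member, measured 315 CPM in control mouse 11, 269 in mouse 20, 463.5 in mouse 31, 303 in mouse 37 and 327 in mouse 38. The GA-Camk2a cortices ranged from 217 to 270.5 CPM, with a median of 254. Here 5 of 6 GA-Camk2a libraries were below every control, and mouse 31 stood well above the other controls. Map2 fell by 0.44 in the cortex (SE 0.09, adjusted p = 0.00272), a call that all 11 fits without 1 library kept.

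In the hippocampus, Map2 was 475, 406, 437 and 399 CPM in control mice 11, 20, 31 and 37, and 281 to 433 CPM (median 359) in GA-Camk2a mice. The log2 difference of -0.33 (SE 0.10, adjusted p = 0.0519) just missed the threshold. It passed with the size factors of DESeq2 in place of the TMM factors, with DESeq2 itself, with limma-voom and without the filter on low counts, and also without control mouse 37 or without GA-Camk2a mouse 23 or 34. Hippocampal Nefh and Map2 thus lay just inside and just outside the threshold, and neither call separates them.

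Map1b encodes a precursor that is cut into a heavy and a light chain, and is best known from growing axons. In the cortex it measured 1519.8 CPM in control mouse 11, 1162 in mouse 20, 1359 in mouse 31, 1645 in mouse 37 and 1748 in mouse 38. The GA-Camk2a cortices lay between 1009.6 and 1396 CPM with a median of 1120.4, and 5 of 6 were below every control. Hippocampal Map1b was 1762, 1533, 1720.2 and 1441 CPM in control mice 11, 20, 31 and 37, and 1106 to 1487 CPM (median 1185) in GA-Camk2a mice. Map1b fell by 0.38 in the cortex (SE 0.10, adjusted p = 0.0148) and by 0.44 in the hippocampus (SE 0.09, adjusted p = 0.00480). The cortical call was lost without control mouse 37 or 38, at an adjusted p of up to 0.0746.

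Mapt, the tau gene, was 255 CPM in the cortex of control mouse 11, 274 in mouse 20, 376 in mouse 31, 244 in mouse 37 and 249 in mouse 38, and 207 to 258 CPM (median 231) in GA-Camk2a mice. Apart from mouse 31, the controls were close to the upper GA-Camk2a values. Its cortical difference of -0.28 (SE 0.10, adjusted p = 0.0649) was not called. Without control mouse 31 it was -0.17 (adjusted p = 0.264), and without control mouse 38 it was called, at -0.33 (adjusted p = 0.0337). Hippocampal Mapt was 265, 272, 304 and 269 CPM in control mice 11, 20, 31 and 37, and 182 to 266 CPM (median 233) in GA-Camk2a mice, and it fell by 0.33 (SE 0.09, adjusted p = 0.0265). That call held in 5 of 10 fits without 1 library and was lost after thinning. Counts at the 3′ end do not tell the splice forms of Mapt or Map2 apart.

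Tubb3, Stmn2 and Uchl1 fell in the hippocampus and were not called in the cortex. Their cortical differences were -0.14, -0.09 and -0.09 in batch 1 alone, and -0.37, -0.32 and -0.24 in batch 2 alone. In the hippocampus they were -0.33, -0.40 and -0.32 in batch 1 alone, and -0.33, -0.41 and -0.38 in batch 2 alone. None of these genes was called in either batch alone, and no test compared the batches. Hippocampal Stmn2 was 301, 294, 309 and 322 CPM in control mice 11, 20, 31 and 37, and 205 to 272 CPM (median 242) in GA-Camk2a mice, without overlap. It fell by 0.40 (SE 0.08, adjusted p = 0.00507), and all 10 fits without 1 library kept the call. In the cortex, Stmn2 was 292, 359.7, 311, 421 and 372 CPM in control mice 11, 20, 31, 37 and 38, and 262 to 324 CPM (median 313) in GA-Camk2a mice. Only 1 GA-Camk2a cortex was below every control, and the difference of -0.17 (SE 0.09, adjusted p = 0.254) was not called (-0.23 to -0.12 without 1 library).

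Tubb3 in the hippocampus was 133, 128, 152 and 156 CPM in control mice 11, 20, 31 and 37, and 102 to 131 CPM (median 117) in GA-Camk2a mice. It fell by 0.33 (SE 0.09, adjusted p = 0.0343), 4 of 6 GA-Camk2a values were under the lowest control, and the call held in 4 of 10 fits without 1 library. Cortical Tubb3 was 191, 227, 224, 217 and 269.9 CPM in control mice 11, 20, 31, 37 and 38, against 167 to 223 CPM (median 195) in GA-Camk2a mice, a difference of -0.22 (SE 0.10, adjusted p = 0.144). The cortical ranges overlapped.

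Uchl1 in the hippocampus was 479.7, 515, 544 and 581 CPM in control mice 11, 20, 31 and 37, and 384 to 483 CPM (median 432) in GA-Camk2a mice. It fell by 0.34 (SE 0.09, adjusted p = 0.0220) and kept the call in 7 of 10 fits without 1 library but not after thinning. In the cortex Uchl1 was 581, 681, 595, 611 and 619.8 CPM in control mice 11, 20, 31, 37 and 38, against 462 to 626 CPM (median 564) in GA-Camk2a mice. Its difference there, -0.14 (SE 0.09, adjusted p = 0.347), was the smallest of the 10 with all libraries. It ran from -0.18 without GA-Camk2a mouse 35 to -0.066 without GA-Camk2a mouse 16.

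**Figure D2:**
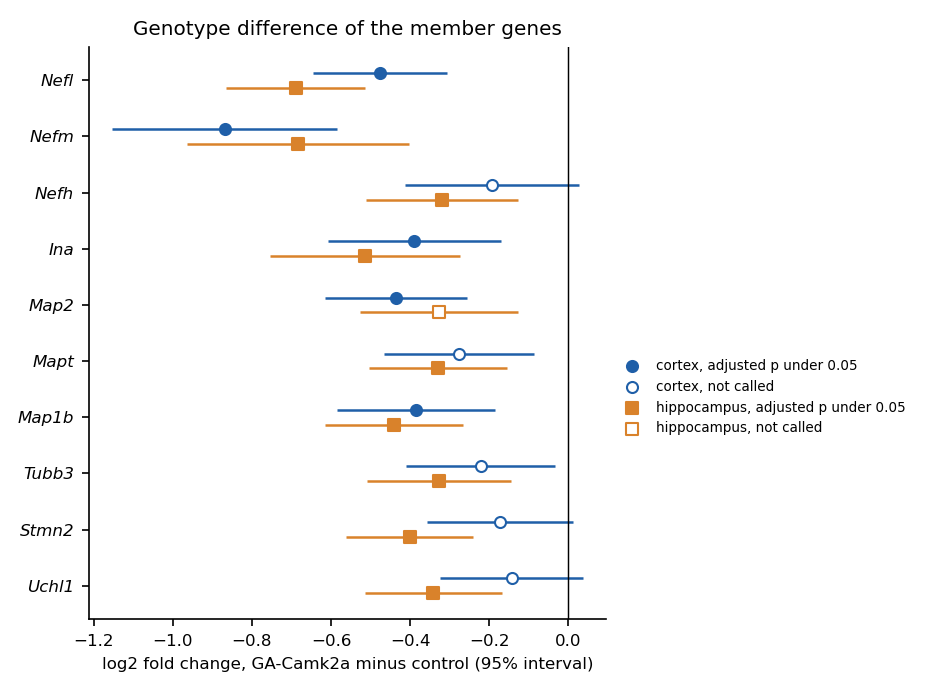
Log2 fold change of GA-Camk2a minus control (horizontal axis) with its 95% interval for the 10 genes in cortex (circles) and hippocampus (squares). Filled symbols have an adjusted p under 0.05: 5 genes in cortex and 9 in hippocampus, all of them below 0, with Nefm at -0.87 the farthest from 0 in cortex and Nefl at -0.69 in hippocampus.

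Counted over the group, 5 of the 10 genes were called lower in the cortex (Nefl, Nefm, Ina, Map2 and Map1b), where 6.16% of the 13058 genes tested were called lower. In the hippocampus 9 of the 10 were called lower, all but Map2, where 5.95% of 14884 genes were. None was called higher, where 6.35% and 4.97% of the genes tested were. The median log2 difference of the 10 genes was -0.33 in the cortex, against -0.0049 over all genes tested, and -0.37 in the hippocampus, against 0.016. The genotypes did not overlap, with all GA-Camk2a values under all control values, in 1 member in the cortex (Nefl), where 2.67% of all genes tested were so ordered, and in 3 members in the hippocampus (Nefl, Nefm and Stmn2), where 4.02% were. Within each batch alone, all 10 differences were below 0 in both tissues, but fewer were called: 3 in batch 1 and 0 in batch 2 in the cortex, and 0 in batch 1 and 4 in batch 2 in the hippocampus. At an unadjusted p under 0.05 in edgeR, 7 members passed in batch 2 in the cortex and 8 in batch 1 in the hippocampus. Of all genes tested in these fits, 1538 of 11808 and 1891 of 15966 passed. The hippocampal count was 5 without control mouse 31, 5 without control mouse 37 and 6 after thinning, where Nefh, Mapt and Uchl1 were lost.

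The difference between the tissues in the genotype effect was tested directly as an interaction in edgeR. None of the 10 genes was called, and none had an unadjusted p under 0.05. Of the 14751 genes tested, 0.414% were called and 1467 had an unadjusted p under 0.05. The difference of the log2 fold changes, hippocampus minus cortex, ran from -0.22 for Nefl (95% interval -0.46 to 0.02) to 0.15 for Nefm (-0.31 to 0.61). The Nefm value turned its direction with batch, at 0.64 (SE 0.28) in batch 1 alone and -0.45 (SE 0.26) in batch 2 alone, and ran from 0.0075 to 0.36 over the fits without 1 library. Tubb3, Stmn2 and Uchl1, called in the hippocampus and not in the cortex, had differences of -0.11 (-0.37 to 0.15), -0.22 (-0.48 to 0.05) and -0.19 (-0.45 to 0.06). The higher number of calls in the hippocampus is therefore not shown to be a difference between the tissues.

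Levels across the tissues were compared within each genotype, in a fit with batch as a term that did not pair the tissues. All mice but control 38, which gave cortex only, had both tissues. Tubb3 was lower in the hippocampus than in the cortex in both: by a log2 difference of -0.72 in controls (SE 0.11, adjusted p = 0.000204) and -0.81 in GA-Camk2a mice (SE 0.09, adjusted p = 3.89e-06), in 4 of 4 and 6 of 6 mice. Map2 was higher in the hippocampus, by 0.33 in controls (SE 0.11, adjusted p = 0.0469; 3 of 4 mice) and by 0.44 in GA-Camk2a mice (SE 0.09, adjusted p = 0.000986; 6 of 6 mice). In controls the Map2 call held in only 2 of 9 fits without 1 library, and it was lost in the fit with the mouse as a block. These 2 genes were the only members called in controls, where 16.5% of 14435 genes were called in either direction.

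In GA-Camk2a mice 33.3% of 13098 genes were called between the tissues, and Stmn2 and Uchl1 were called besides Tubb3 and Map2. Stmn2 was lower in the hippocampus by 0.45 (log2 difference -0.45, SE 0.09, adjusted p = 0.000663) and Uchl1 likewise (-0.45, SE 0.09, adjusted p = 0.00106), each in 6 of 6 mice. In controls their differences were -0.26 (SE 0.11, adjusted p = 0.117) and -0.28 (SE 0.10, adjusted p = 0.0667), and they were called there in 3 and 4 of the alternative fits. The 4 filament genes, Mapt and Map1b were not called between the tissues in either genotype with all libraries. For Nefl the interval of the difference in controls was -0.10 to 0.26, and for Nefm, whose controls were widely spread, -0.71 to 0.01. Nefm in controls was -0.80 (SE 0.18, adjusted p = 0.0107) in batch 1 alone and 0.21 (SE 0.18, adjusted p = 0.504) in batch 2 alone, and it was called without hippocampal control mouse 31 (adjusted p = 0.0431), so its direction between the tissues was not the same in both batches.

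**Figure D3:**
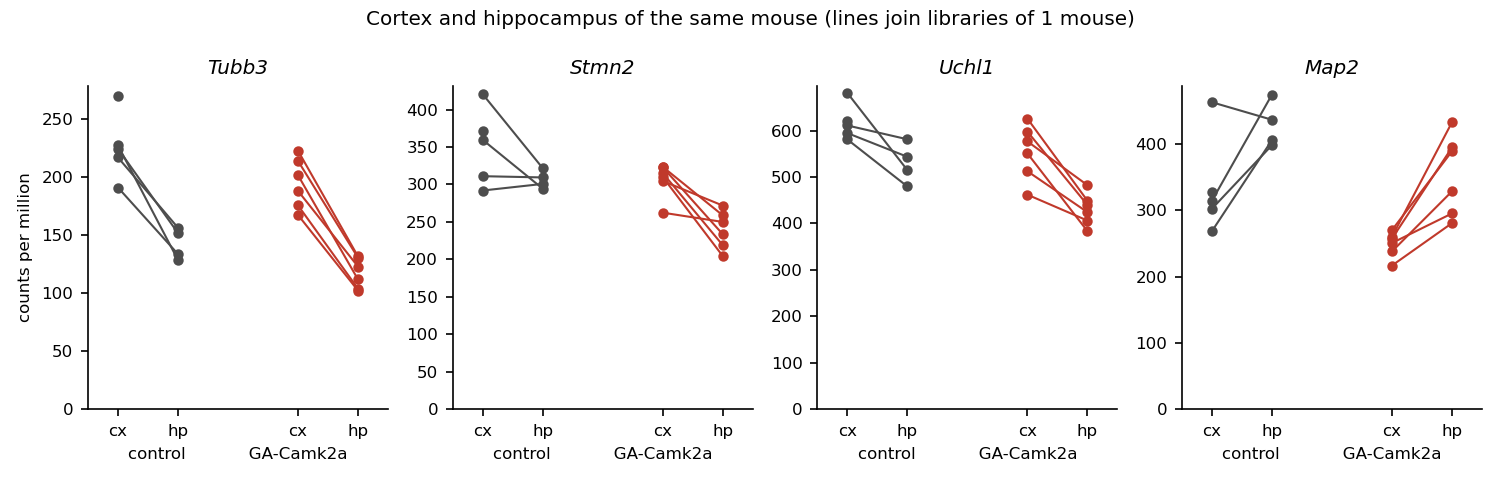
CPM (vertical axis) of Tubb3, Stmn2, Uchl1 and Map2 in cortex (cx) and hippocampus (hp), with lines joining the libraries of 1 mouse and an unjoined point for the control with cortex only. Tubb3 and Uchl1 are lower in the hippocampus of each of the 10 joined mice, and Map2 is higher in 6 of 6 GA-Camk2a mice and 3 of 4 controls.

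RNA of other neuronal genes also fell. The summed level of 10 pan-neuronal markers was 5276 ± 396 CPM (SD, n = 5) in control cortex and 3998 ± 210 CPM (SD, n = 6) in GA-Camk2a cortex, and 4613 ± 244 CPM (SD, n = 4) and 3430.0 ± 301 CPM (SD, n = 6) in the hippocampus. Of these 10 markers, 5 were called lower in the cortex (among them Syt1, Snap25 and Thy1) and 7 in the hippocampus, and their median log2 differences were -0.30 and -0.41. Snap25 and Syt1 act in synaptic vesicle fusion, and Thy1 is a neuronal surface protein. In bulk RNA, fewer neurons and less RNA per neuron cannot be told apart.

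Excitatory neuron markers, including Camk2a and Neurod6, were called lower for 5 of 7 genes in each tissue, with medians of -0.74 and -0.77. Their summed level was 975 to 1433 CPM in control and 744 to 926 CPM in GA-Camk2a cortex, and 1442 to 1809 CPM against 729.6 to 969 CPM in the hippocampus. In the interaction, 2 of these 7 markers were called, each with a more negative difference in the hippocampus, where 0.414% of all genes tested were called. The list median of the interaction was -0.41, with 5 markers below 0 and 2 above. Markers of microglia rose for 5 of 7 genes in each tissue, and summed to 201 to 215 CPM in control and 411 to 620 CPM in GA-Camk2a cortex, and to 181 to 206 CPM against 285 to 430 CPM in the hippocampus. Astrocyte markers rose for 4 of 7 genes in the cortex and 5 of 7 in the hippocampus. Blood markers rose for 3 of 4 genes in the cortex (median 0.66), while in the hippocampus 0 of 4 was called (median 1.123) and all 4 had an unadjusted p under 0.05 in edgeR, as did 3679 of all 14884 genes tested. They summed to 645 to 938 CPM in control and 709 to 2211 CPM in GA-Camk2a cortex, and to 552 to 871 CPM and 689.8 to 5547 CPM in the hippocampus. None of 6 inhibitory neuron markers was called lower, while Vip rose in both tissues and Gad2 in the hippocampus. No marker of these lists was at 0 in every library, and the part of cell composition in the values of the 10 genes was not tested.

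Each gene was then set against the pan-neuronal sum of its own library, as a log2 share. Snap25 was the most abundant marker in this sum, with a mean of 2467 of 5276 CPM in control cortex and 2045 of 4613 CPM in control hippocampus. In the cortex, the Nefl share was -3.58 ± 0.11 (SD, n = 5) in controls and -3.65 ± 0.14 (SD, n = 6) in GA-Camk2a mice, a difference of -0.07 (exact permutation p = 0.381) that ran from -0.13 to -0.032 over the alternatives run. In the hippocampus it was -3.27 ± 0.11 (SD, n = 4) and -3.49 ± 0.15 (SD, n = 6), a difference of -0.22 (exact permutation p = 0.00952), and all 6 GA-Camk2a values were under the lowest control. The Nefm share differed by -0.44 in the cortex (exact permutation p = 0.0671) and by -0.23 in the hippocampus (p = 0.11). These permutations do not take batch into account. Within batch 1 and batch 2 the Nefm share differed by -0.64 and -0.12 in the cortex, and by 0.06 and -0.52 in the hippocampus, so its hippocampal direction was not the same in both batches.

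The shares of the other 8 members differed by -0.05 to 0.24 over both tissues. In the cortex Uchl1 differed by 0.24 (exact permutation p = 0.0433), Stmn2 by 0.21 (p = 0.143), Tubb3 by 0.19 (p = 0.0671) and Nefh by 0.18 (p = 0.190). In batch 1 and batch 2 alone these values were 0.33 and 0.11 for Uchl1, 0.33 and 0.06 for Stmn2, 0.29 and 0.0020 for Tubb3, and 0.15 and 0.27 for Nefh. Ina, Map1b and Map2 in the cortex differed by 0.02, 0.03 and -0.0094, and the direction of each turned between the batches. In the hippocampus the 7 genes other than Nefl, Nefm and Ina differed by 0.03 (Map1b) to 0.15 (Nefh), and Ina by -0.05, of which Map1b turned between the batches. Without control mouse 11 the hippocampal Nefh share differed by 0.055. All 20 tests were two-sided exact permutation tests, which cannot give a p below 0.00216 in the cortex or 0.00476 in the hippocampus. After adjustment over the 20 tests none passed, with adjusted p of 0.190 for hippocampal Nefl and 0.335 for cortical Uchl1.

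Ratios between filament subunits, or between microtubule-associated proteins, do not depend on library size. The log2 ratio of Nefh to Nefl was -3.08 ± 0.22 (SD, n = 4) in control and -2.70 ± 0.27 (SD, n = 6) in GA-Camk2a hippocampus, higher by 0.38 (exact permutation p = 0.0429), and 5 of 6 GA-Camk2a values exceeded the highest control. In the cortex it was -3.01 ± 0.18 (SD, n = 5) and -2.75 ± 0.28 (SD, n = 6), higher by 0.25 (exact permutation p = 0.108), with 4 of 6 above every control. The Nefm to Nefl ratio differed by -0.36 in the cortex (exact permutation p = 0.0606) and by -0.0039 in the hippocampus (p = 0.976). In control cortex this ratio alone ranged from -2.49 to -1.44, and mouse 11 held the highest value: without it the cortical difference was -0.21. Within batch 1 and batch 2 the Nefm to Nefl ratio differed by -0.59 and 0.0017 in the cortex, and by 0.29 and -0.29 in the hippocampus. Ina to Nefl differed by 0.09 and 0.18, and Mapt to Map2 by 0.15 and 0.00097, in cortex and hippocampus, where the last was -0.13 in batch 1 and 0.13 in batch 2. Over the alternatives run, Ina to Nefl ran from 0.03 to 0.17 in the cortex and from 0.115 to 0.24 in the hippocampus. Map1b to Map2 differed by 0.04 in the cortex (exact permutation p = 0.896) and by -0.11 in the hippocampus (p = 0.2). Of the 10 ratio tests none passed after adjustment, the lowest adjusted p being 0.238.

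**Figure D4:**
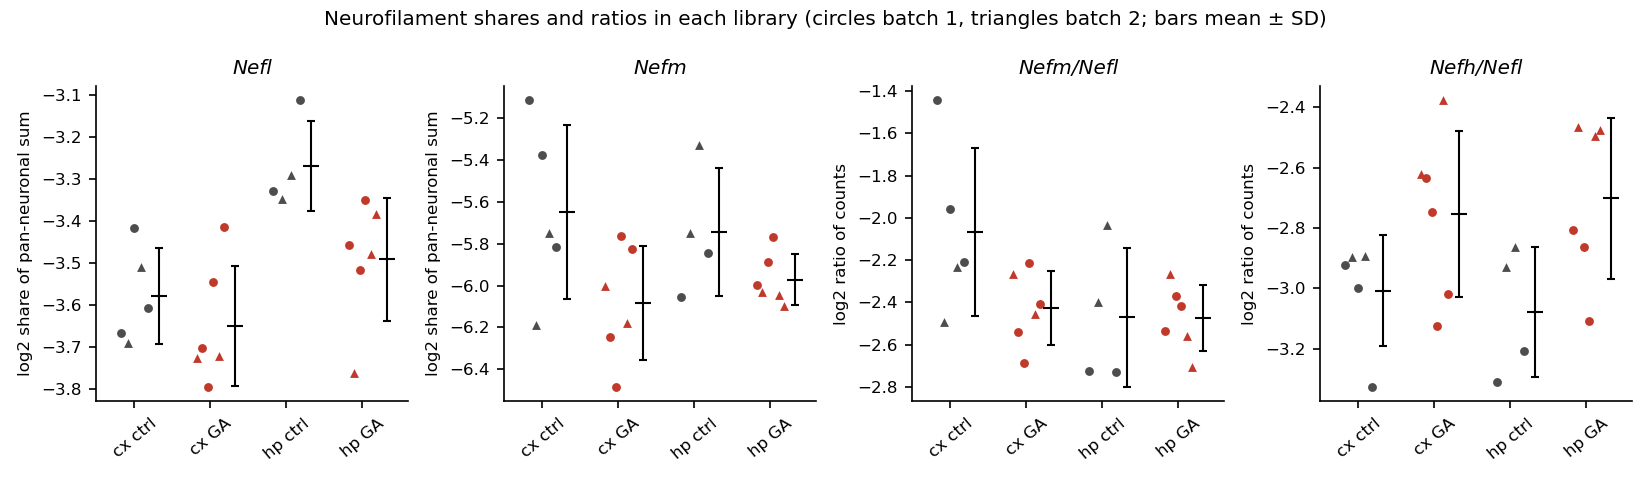
Log2 share of Nefl and Nefm in the pan-neuronal sum and log2 ratios of Nefm and Nefh to Nefl (vertical axes) in every library, by tissue and genotype; crosses with bars are the mean ± SD. The Nefl share in GA-Camk2a hippocampus lies below all 4 controls, while the Nefm to Nefl ratio of control cortex spans -2.49 to -1.44.

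The wider cytoskeleton and transport machinery was covered by 10 further lists with 168 genes in all. In the cortex 151 of these were tested, of which 32 fell (21.2%) and 7 rose (4.64%). In the hippocampus 154 were tested, of which 32 fell (20.8%) and 6 rose (3.9%). The shares of all genes called lower and higher were those given above, and the shares that rose were below them in both tissues.

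Among the other microtubule-associated proteins, 6 of 23 tested genes fell in the cortex and 4 in the hippocampus, where 1 rose, with list medians of -0.18 and -0.13. Map1a, the close relative of Map1b, fell by 0.47 in the cortex (SE 0.11, adjusted p = 0.00715) and by 0.52 in the hippocampus (SE 0.12, adjusted p = 0.0141). In the cortex Map6d1 fell by 0.52 and Dclk1, a doublecortin-like kinase that binds microtubules, by 0.44. In the hippocampus Jakmip1 fell by 0.54 and Map9 by 0.41, and the member that rose was Mapre1, a protein of growing microtubule ends, by 0.36.

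Of 12 other tubulins tested, 2 fell in the cortex and 5 in the hippocampus, with medians of -0.13 and -0.25, and none rose. Tuba4a fell by 0.40 in the cortex (SE 0.10, adjusted p = 0.00662) and 0.51 in the hippocampus (SE 0.09, adjusted p = 0.00150), and Tubb5 by 0.30 and 0.37. Tubb2a fell by 0.60 in the hippocampus (SE 0.08, adjusted p = 0.000270). It was the only gene of the 168 called in the interaction, with a difference of -0.55 (SE 0.12, adjusted p = 0.0419) between hippocampus and cortex. Tubb2b, a closely similar gene, fell by 0.32 in the hippocampus (SE 0.09, adjusted p = 0.0255), with a difference of -0.33 between the tissues (SE 0.12, adjusted p = 0.314). How the counting divided reads between these genes was not tested.

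Of 9 other stathmins and severing proteins tested, Spast, a microtubule-severing enzyme, fell in the cortex by 0.51 (SE 0.15, adjusted p = 0.0299) and Stmn3 in the hippocampus by 0.45 (SE 0.08, adjusted p = 0.00209). Tubulin-modifying enzymes and chaperones showed 2 lower and 1 higher gene of 15 in the cortex, and 0 of 17 in the hippocampus, where 7 had an unadjusted p under 0.05 in edgeR. Of all 14884 genes tested in the hippocampus, 3679 passed that unadjusted threshold. The lower cortical genes were Agtpbp1 and Ttll7, which remove and add glutamates on tubulin, each at -0.41, and the higher one was Svbp at 0.35, a partner of the enzymes that remove tyrosine from tubulin.

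Motor genes held the largest decrease of these lists. Kif5a, a neuronal kinesin heavy chain that carries neurofilaments and other cargo along axons, fell by 0.98 in the cortex (SE 0.09, adjusted p = 1.41e-07) and by 0.89 in the hippocampus (SE 0.09, adjusted p = 2.76e-05). Of 30 motor genes, 4 fell and 1 rose in the cortex and 7 fell in the hippocampus. Kif5c fell by 0.50 and 0.43, and Dynll1, a dynein light chain, fell by 0.49 in the hippocampus. Hap1, which links cargo to motors, rose by 0.54 in the cortex (SE 0.16, adjusted p = 0.0251).

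Of 22 kinases and phosphatases that act on tau or neurofilaments, 10 fell and 1 rose in the cortex and 7 fell in the hippocampus, with medians of -0.25 and -0.18. The activators of the kinase Cdk5 were among them: Cdk5r2 fell by 0.69 (SE 0.15, adjusted p = 0.00428) and 0.78 (SE 0.12, adjusted p = 0.000498), and Cdk5r1 by 0.50 and 0.66, in cortex and hippocampus. Ppp2r2c, a regulatory subunit of protein phosphatase 2A, fell by 0.51 in the cortex. The list holds enzymes that add and enzymes that remove phosphate, and these counts do not measure phosphorylation.

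Of 12 axonal spectrins, ankyrins and adducins, 6 fell and 1 rose in the cortex, and 4 fell and 1 rose in the hippocampus. Sptbn4, a spectrin of the axon initial segment and nodes, fell by 0.75 in the cortex (SE 0.17, adjusted p = 0.00381). Sptan1 and Ank3 fell by 0.43 and 0.41 in the cortex, and Add2 by 0.43 in the hippocampus, where Add3 rose by 0.47. Add3 was also the gene that rose in the cortex.

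Of the other intermediate filaments, 2 of 5 tested rose in the cortex and 2 of 7 in the hippocampus, and none fell. Gfap, the filament of astrocytes, rose by 2.27 in the cortex (SE 0.16, adjusted p = 3.86e-09) and by 2.32 in the hippocampus (SE 0.14, adjusted p = 4.1e-07), and Vim, a filament of glia and vessels, by 1.67 (SE 0.23, adjusted p = 3.79e-05) and 2.19 (SE 0.17, adjusted p = 4.51e-06). Prph, the neuronal filament of peripheral and motor neurons, was tested in the hippocampus, at -0.29 (SE 0.25, adjusted p = 0.533).

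Beside Uchl1, 0 of 11 other ubiquitin hydrolases and ubiquitin genes was called in the cortex, where 3 had an unadjusted p under 0.05 in edgeR, and 1 fell in the hippocampus, Otub1, by 0.40 (SE 0.09, adjusted p = 0.00975). Of all 13058 genes tested in the cortex, 3389 passed that unadjusted threshold. Of the axon growth and injury genes, 1 fell and 1 rose of 12 in the cortex: Klf7, at -0.36, and Ecel1, an endopeptidase known to be induced in injured neurons, at 0.76 (SE 0.20, adjusted p = 0.0144). In the hippocampus 3 of 11 fell (Basp1, Crmp1 and Dpysl2, at -0.47, -0.42 and -0.41) and 2 rose (Klf6 and Marcks, at 0.42 and 0.31).

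**Figure D5:**
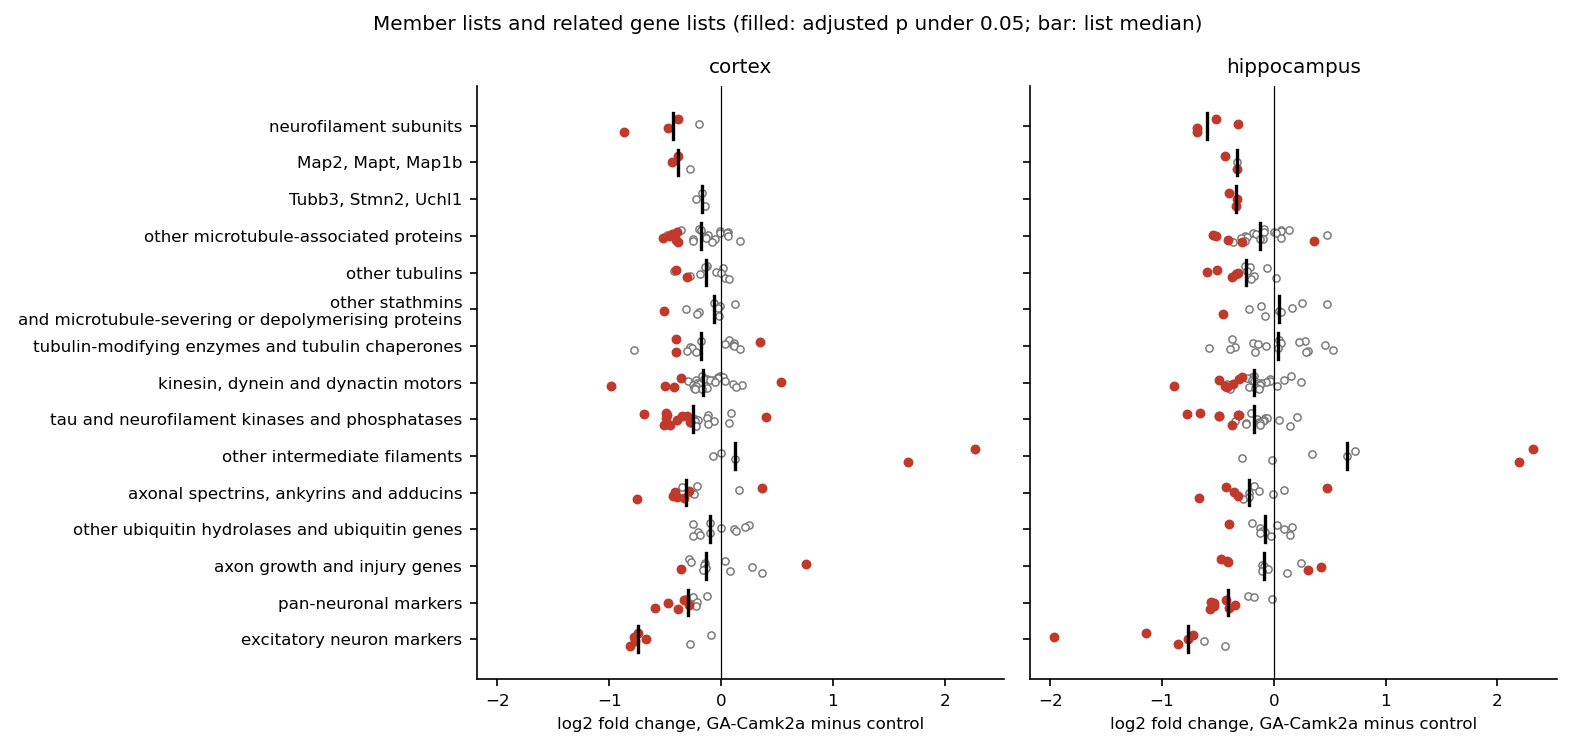
Log2 fold change of GA-Camk2a minus control (horizontal axis) for each gene of the member lists, the 10 related lists and the pan-neuronal and excitatory marker lists (rows), in cortex and hippocampus. Filled points have an adjusted p under 0.05 and black bars are list medians; Gfap and Vim lie at 1.67 to 2.32 in the row of other intermediate filaments, and Kif5a at -0.98 and -0.89 in the row of motors.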

How the data were processed

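Gene counts were taken as deposited. According to the labels and the methods of the study, the authors read prime-seq libraries of cortex and hippocampus with FastQC 0.11.8, cutadapt 1.12 and STAR on the mouse build mm39 and used DESeq2 1.44 for their own comparisons. Its software list also names zUMIs and demultiplex for these libraries. The gene annotation and whether the counts are of reads or of unique molecular identifiers were not given in the sources used here. All count columns belonged to the 21 samples. The labels were followed for group sizes, although a legend of the study gives the control numbers of the tissues the other way round.

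Each comparison was fitted over all genes with edgeR 4.0.16 in R 4.3.3: low genes removed by filterByExpr (minimum count 10), TMM factors, a quasi-likelihood test with library batch as a term and Benjamini-Hochberg adjustment. Genotypes were compared within each tissue, the interaction used all libraries, and tissues were compared within each genotype. SE values are the fold change divided by the square root of F. CPM is the count per 1000000 counts of the library, without TMM factors, and 95% intervals use the normal approximation. The depth given in the report limits genes with few counts most. Shares and ratios (pseudocount 0.5 for ratios) were tested by exact permutation of mice within a tissue. Alternatives were other size factors (RLE, upper quartile), DESeq2 1.42.0, limma-voom (limma 3.58.1), no filter, no batch term, each batch alone, thinning to the smallest library, leaving out each library, and the replicate block.

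Replicates were separate mice. Replicate numbers are mouse numbers, so both tissues of a mouse are paired by animal. Over 5180 genes the deviations of a mouse's 2 libraries from their group means correlated at -0.28 to 0.42, at 0.25 to 0.42 for the 5 mice with both libraries in 1 batch and at -0.28 to -0.04 for the others. With batch removed they correlated at -0.13 to 0.34.

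Members always, and in each related list up to 3 called genes with the largest change per tissue, were named. Tubb2b, Mapre1, Prph, Dpysl2, Marcks, Camk2a, Neurod6, Vip and Gad2, and Add3 in the cortex, were named after their values were seen. Some genes that this rule names are not reported here. Members and lists were chosen with earlier results of these data known.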

Additional observations from a re-analysis of the deposited data

Results flagged for a closer look

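In 3 of 40 groups of libraries (10 genes in 4 groups) 1 library lay far from the rest, where chance gives about 2. Cortical Mapt in control mouse 31 was 376 CPM, while the other 4 controls lay between 244 and 274 CPM. Cortical Map1b in GA-Camk2a mouse 30 was 1396 CPM against 1009.6 to 1154 CPM in the other 5, and cortical Stmn2 in the same library was 262 CPM against 305 to 324 CPM, so that 1 gene was high and the other low there.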

How the results depend on the processing

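Of the results for single members (log2 differences, shares and ratios), 1366 kept their direction and their side of the threshold, 72 lost a call, 17 gained one, 3 shares moved by more than the SD of the controls and 57 reversed. The gains were 7 for hippocampal and 1 for cortical genotype differences (Map2 and Mapt) and, between tissues in controls, 2 for Nefm, 3 for Stmn2 and 4 for Uchl1. All differences of the 10 genes between genotypes stayed below 0 under the alternatives run. The reversals were of differences that had not been called. In the interaction, Nefm was -0.45, Map2 -0.097 and Tubb3 0.053 in batch 2 alone, Tubb3 was 0.011 after thinning, and without 1 library Mapt ran from -0.16 to 0.0043 and Map1b from -0.14 to 0.022. Between tissues in controls, Nefm was 0.21, Nefh 0.094 and Mapt 0.098 in batch 2 alone, Nefh was 0.0092 without the filter and 0.0046 without the batch term, and Ina was -0.0084 after thinning; without 1 library Nefh ran from -0.071 to 0.055, Ina from -0.0498 to 0.13, Mapt from -0.11 to 0.044 and Map1b from -0.021 to 0.15. Between tissues in GA-Camk2a mice, Mapt was 0.028 in batch 2 alone, and without 1 library Ina ran from -0.18 to 0.0062 and Map1b from -0.016 to 0.079. Cortical shares in batch 2 alone were -0.055 for Ina, 0.047 for Map2 and -0.032 for Map1b, and with the most abundant marker left out of the sum -0.039 for Ina and -0.0311 for Map1b; without 1 library they ran from -0.065 to 0.091, -0.071 to 0.099 and -0.043 to 0.11 for Ina, Map2 and Map1b. Hippocampal shares were 0.063 for Nefm in batch 1 alone and, for Map1b, -0.0297 in batch 2 alone and -0.018 without that marker; without 1 library Ina ran from -0.13 to 0.034 and Map1b from -0.00497 to 0.053. Of the ratios, cortical Nefm to Nefl was 0.0017 and Map1b to Map2 -0.079 in batch 2 alone (-0.11 to 0.11 without 1 library), hippocampal Mapt to Map2 was -0.13 in batch 1 alone (-0.078 to 0.061 without 1 library), and hippocampal Nefm to Nefl was 0.027 with a pseudocount of 5, 0.29 in batch 1 alone and -0.089 to 0.14 without 1 library. In the cortex 5 members and 1634 genes were called: 3 and 879 in batch 1 alone, 0 and 230 in batch 2 alone (where 7 members and 1538 of 11808 genes had an unadjusted p under 0.05 in edgeR), and 5 and 1024 after thinning. Without 1 library the counts ran from 4 to 5 members and 1040 to 1526 genes, lowest without control mouse 31. In the hippocampus 9 members and 1625 genes were called: 0 and 115 in batch 1 alone (8 members and 1891 of 15966 genes at an unadjusted p under 0.05), 4 and 681 in batch 2 alone, and 6 and 1072 after thinning. Without 1 library they ran from 5 (without control mouse 31 or 37) to 9 members and from 1038 to 1830 genes (1038 without control mouse 31, 1082 without control mouse 20). Each batch alone and thinning use fewer samples or counts. In the interaction 61 genes were called: 113 by DESeq2, 159 without the filter, 33 without the batch term, 0 in either batch alone, 20 after thinning and 22 to 66 without 1 library (22 without hippocampal control mouse 31). Between tissues in controls 2385 genes were called (1241, 1275 and 1372 in batch 1, batch 2 and after thinning, 1580 to 3170 without 1 library) and 2 members: 1 with RLE factors or without the batch term, 4 by limma-voom, and 1 to 4 without 1 library, 4 without cortical control mouse 31. In GA-Camk2a mice 4359 genes (2581 and 1353 in batch 1 and batch 2 alone, 3660 to 4262 without 1 library) and 4 members (2 in batch 2 alone) were called. With the replicate block, which pairs the tissues of a mouse, 63 genes were called in the interaction and 4318 between tissues in GA-Camk2a mice, and in controls 1961 genes and 1 member, Tubb3; it changed no other member's call. Without the filter the median of all genes shifted to 0.12 and 0.14 in the tissue comparisons of controls and GA-Camk2a mice. The cause of these changes was not tested.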

Other observations

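The 5 genes whose log2 CPM followed the mean of Nefl, Nefm and Nefh most closely over the 21 libraries, among 5048 genes compared, were Unc13a (Pearson r = 0.94), Trim37 (0.94), Kif5a (0.93), Lynx1 (0.89) and Ywhag (0.89). Unc13a encodes a protein that primes synaptic vesicles, and Kif5a a kinesin heavy chain. Genotype, tissue and depth are shared by these points, so the values are a description. After the means of the 4 groups and of batch were removed, the closest were Emc10 (0.82), Prkcz (0.79), Cplx1 (0.78), Unc13a (0.78) and Trim37 (0.77). Among the other members, Mapt was closest by both measures, at 0.81 and 0.68, and Ina stood at 0.76 and 0.41. Stmn2 fell from 0.57 to 0.08, Map1b from 0.68 to 0.15 and Uchl1 from 0.56 to 0.11 once these means were removed. Tubb3 went from 0.45 to 0.34 and Map2 from 0.48 to 0.43.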
